A study of Mus musculus with 8 samples.

Results

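The 10 genes described here code for C-type lectin receptors of myeloid cells: Mrc1, Clec10a, Mgl2, Cd209a, Clec4a1, Clec4a2, Clec4a4, Clec12a, Clec4n and Clec7a. They were taken by symbol from the deposited count table, in which all 10 are found among 24369 gene symbols. The list was fixed by gene name, but it was chosen with earlier results of these data known. C-type lectin receptors are membrane proteins whose lectin-like domain binds sugars of microbes, of damaged cells or of glycoproteins. Some take up what they bind for antigen presentation, some activate the cell through the kinase Syk and the adaptor Card9, either directly or through the Fc receptor gamma chain Fcer1g, and some carry an inhibitory motif that recruits phosphatases such as Ptpn6. In mouse tissues the genes are expressed mainly in macrophages, monocytes and type 2 conventional dendritic cells (cDC2), whereas type 1 conventional dendritic cells (cDC1), the cells specialised in cross-presentation, are known for another lectin receptor, Clec9a.

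The 8 RNA-seq libraries came from dendritic cells sorted by flow cytometry from tumours of wild-type mice and fell into 4 groups of 2: EGFP-positive cDC2, EGFP-negative cDC2, EGFP-positive cDC1 and EGFP-negative cDC1. The tumours were made of MC38-EGFP cells, a mouse colon cancer line that carries the green fluorescent protein EGFP, and each subset was divided by the EGFP signal of its cells. All groups shared the genotype and the tumour, the labels name no drug for any library, and neither the age of the mice nor the surface markers of the sort are given in the sources used here. The cell type field of all 8 libraries reads colon cancer, and the sorted population stands in the titles. The titles give replicate 1 of all 4 groups one code and replicate 2 another, but nothing states what the codes mark or whether the replicates came from separate mice, so the p-values below measure only the spread between these libraries.

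Library totals ranged between 17869441 and 22195681 counts, and the ribosomal RNA precursor Rn45s took 19.4% to 35.6% of them. Levels are given as CPM, counts relative to the library total after scaling by the trimmed mean of M values (TMM), and 3 counts in a library corresponded to 0.131 to 0.211 CPM. The cDC1 marker Xcr1 had 103 to 331 CPM in the cDC1 libraries, against at most 5.31 CPM in the cDC2 libraries. The libraries labelled cDC2 had little of the list of markers shared by conventional dendritic cells. Its Flt3, Zbtb46, Dpp4 and Ciita summed to 14.2 to 32.2 CPM in the cDC2 libraries and to 152 to 473 CPM in the cDC1 libraries, and the fifth gene, Cd24a, which in mice is typical of cDC1, had 22.8 to 39.5 CPM in the cDC2 libraries and 575 to 1258 CPM in the cDC1 libraries. The count was 0 for Flt3 in EGFP-negative cDC2 replicate 2, for Zbtb46 in EGFP-positive cDC2 replicate 1 and for Dpp4 in EGFP-positive cDC2 replicate 2. The 12 macrophage markers summed to 8591 to 18809 CPM in the cDC2 libraries and to 134 to 2515 CPM in the cDC1 libraries, where Mertk had 0 counts in all 4. The 7 cDC2 markers summed to 1188 to 1901 CPM in the cDC2 libraries and to 119 to 924 CPM in the cDC1 libraries. Of the 7, 3 were higher in every cDC2 library than in any cDC1 library, against 8.56% of all genes. Irf4 overlapped between the subsets. Ltb had 0 counts in all 4 cDC2 libraries and in EGFP-positive cDC1 replicate 1, against 2.01 and 1.86 CPM in EGFP-negative cDC1. Cd7 had 0 counts in both EGFP-positive cDC2 libraries and in EGFP-positive cDC1 replicate 2. In bulk libraries, fewer cells of a type and less RNA per cell cannot be told apart.

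The replicates of EGFP-positive cDC1 stood apart from each other. Across the 11394 genes tested, 30.0% differed more than 10-fold between them, against 9.02% in EGFP-positive cDC2, 9.72% in EGFP-negative cDC2 and 15.7% in EGFP-negative cDC1. Replicate 2 of EGFP-positive cDC1 had 401 CPM of the macrophage and monocyte receptor gene Csf1r and 5498 CPM of Ccr7, the chemokine receptor of mature dendritic cells, where replicate 1 had 1.27 and 368 CPM. The 12 macrophage markers summed to 2515 CPM in replicate 2 and 134 CPM in replicate 1: Apoe had 1543 and 1.31 CPM, C1qb 98.4 and 0.919 CPM and Ms4a7 28.8 and 0.0438 CPM, whereas Adgre1 had 0.421 and 41.7 CPM. Values that rest on this group are therefore also given without replicate 2. Leaving out 1 library of a group leaves a single one, which the test then assumes to vary like the libraries of the other groups, and for a cDC1 library 10 members then pass the low-count filter.

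On the GRCm38 build (GENCODE M21 gene models), 6 of the genes lie on chromosome 6. Clec4a1 (chr6:122921848-122934619), Clec4a4 (chr6:122990367-123024105), Clec4a2 (chr6:123106428-123143999) and Clec4n (chr6:123229843-123247021) follow each other on the plus strand. Clec12a (chr6:129342691-129365303, plus strand) and Clec7a (chr6:129461591-129472779, minus strand) form a second group. Mgl2 (chr11:70130329-70137550) and Clec10a (chr11:70156197-70170834) are plus-strand neighbours on chromosome 11, Mrc1 lies at chr2:14229392-14332057 on the plus strand and Cd209a at chr8:3743397-3748984 on the minus strand.

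Both neighbouring pairs with the highest similarity share long runs of coding sequence, so their counts depend on how the authors' counting treated reads that match both genes, which is not given in the sources used here. Clec10a and Mgl2 were identical at 90.4% of 910 aligned coding bases, and 10.6% of the 50-base words of the Clec10a transcript and 16.5% of those of the Mgl2 transcript occurred in another gene. Clec4a2 and Clec4a4 were identical at 85.7% of 708 aligned bases, with 15.02% and 15.7% of their words shared with another gene. For Mrc1, Cd209a, Clec4a1, Clec12a and Clec7a no 50-base word was shared, and for Clec4n 0.932% were. GENCODE M21 lists Clec7a as a polymorphic pseudogene and the other 9 genes as protein coding. The stretches below, 120 coding bases each from spliced GENCODE transcripts, show where each pair can be told apart: the first 60 bases end the longest run that the pair shares, which is 183 bases long for Clec10a and Mgl2 and 163 bases for Clec4a2 and Clec4a4, and capitals mark the 4 and 7 bases that differ.
Clec10a, coding bases 625 to 744, exonic bases within chr11:70170048-70170249: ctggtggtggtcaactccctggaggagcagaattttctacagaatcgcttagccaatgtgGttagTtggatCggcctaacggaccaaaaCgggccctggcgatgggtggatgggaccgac
Mgl2, coding bases 673 to 792, exonic bases within chr11:70136563-70136759: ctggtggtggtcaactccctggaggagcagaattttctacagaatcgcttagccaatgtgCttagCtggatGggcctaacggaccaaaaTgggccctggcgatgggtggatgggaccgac
Clec4a2, coding bases 178 to 297, exonic bases within chr6:123125065-123128049: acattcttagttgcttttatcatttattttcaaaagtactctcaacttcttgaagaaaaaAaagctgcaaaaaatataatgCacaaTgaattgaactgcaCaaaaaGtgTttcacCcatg
Clec4a4, coding bases 178 to 297, exonic bases within chr6:122991855-123004106: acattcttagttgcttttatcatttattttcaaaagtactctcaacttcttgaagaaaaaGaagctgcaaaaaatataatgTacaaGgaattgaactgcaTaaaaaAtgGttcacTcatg

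Mrc1, which codes for the macrophage mannose receptor, an endocytic receptor for mannosylated glycoproteins, was the member with the widest gap between the subsets. It had 433 and 323 CPM in EGFP-positive cDC2, 261 and 325 CPM in EGFP-negative cDC2, 0.175 and 0.211 CPM in EGFP-positive cDC1, and 0.140 and 8.30 CPM in EGFP-negative cDC1. The subsets did not overlap, and 3 of the 4 cDC1 libraries held 3 or 4 Mrc1 counts. The mean was 336 ± 71.6 CPM in cDC2 and 2.21 ± 4.06 CPM in cDC1 (SD, n = 4 each). With the 8 libraries in one model that adds subset and EGFP, the log2 fold change of cDC2 over cDC1 was 8.22 ± 1.71 (SE), and its adjusted p of 0.0877 in the edgeR quasi-likelihood test missed the threshold of 0.05. Within the EGFP fractions the log2 fold change was 10.91 ± 1.87 in EGFP-positive cells (edgeR adjusted p = 0.0734) and 6.12 ± 1.49 in EGFP-negative cells (edgeR adjusted p = 0.200). The call over both fractions depended on the fit. With all 8 libraries Mrc1 passed in a model with 1 mean per group and with DESeq2, against 2.41% and 10.2% of all genes. The size of the difference depended on EGFP-negative cDC1 replicate 2, which held 178 of the 181 Mrc1 counts of its group. Without that library the log2 fold change was 10.93 over both fractions and 10.97 in EGFP-negative cells. The second value is against a single library with 3 counts, whose spread is taken from the other groups. The values without EGFP-positive cDC1 replicate 2 were 7.37 over both fractions and 11.03 in EGFP-positive cells, and neither passed. In EGFP-positive cells the difference passed when either EGFP-negative cDC1 library was left out, with a value of 10.90 in each case. In the same libraries the macrophage markers had the summed levels given above, and their part in the lectin results was not tested.

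Between EGFP fractions of the cDC2 libraries, Mrc1 differed by a log2 fold change of 0.37 ± 1.20, and the 2 fractions overlapped. Between EGFP-positive and EGFP-negative cDC1 it was -4.42 ± 1.498 (edgeR adjusted p = 0.307), a value set by the same EGFP-negative cDC1 replicate 2, since without that library it was 0.43. It was -4.54 without EGFP-positive cDC1 replicate 2.

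Cd209a codes for a mouse relative of human DC-SIGN, a receptor for mannose and fucose sugars that is used as a marker of cDC2 and of dendritic cells derived from monocytes. Its level was 19.2 and 38.7 CPM in EGFP-positive cDC2, 64.7 and 55.0 CPM in EGFP-negative cDC2, 0 in both EGFP-positive cDC1 libraries, and 29.1 and 0.0466 CPM in EGFP-negative cDC1. All 4 cDC2 libraries thus carried the gene, and of the cDC1 libraries EGFP-negative replicate 1 did, with 622 counts against 1 in replicate 2. EGFP-positive cDC2 lay at least 358-fold above EGFP-positive cDC1, taking 3 counts over that group as the floor, with an edgeR adjusted p of 0.182. In EGFP-negative cells the log2 fold change of cDC2 over cDC1 was 2.04 ± 1.90 (edgeR adjusted p = 0.851), and over both fractions it was 5.34 ± 2.69 (edgeR adjusted p = 0.445). Without EGFP-negative cDC1 replicate 1, the cDC1 libraries held 1 Cd209a count in all, and the difference over both fractions passed the threshold. Without EGFP-positive cDC1 replicate 2 the value over both fractions was 3.53, and the edgeR adjusted p in EGFP-positive cells was 0.180.

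The 2 EGFP fractions of the cDC2 libraries did not overlap in Cd209a, EGFP-positive lying below EGFP-negative with a log2 fold change of -1.05 ± 1.85 (edgeR adjusted p = 1). EGFP-positive cDC1 lay at least 180-fold below EGFP-negative cDC1, with an edgeR adjusted p of 0.285, and that difference rests on EGFP-negative cDC1 replicate 1 alone.

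Clec10a and Mgl2 code for the macrophage galactose-type lectins, endocytic receptors for galactose and N-acetylgalactosamine sugars. Clec10a had 51.7 and 102 CPM in EGFP-positive cDC2, 41.2 and 21.1 CPM in EGFP-negative cDC2, 6.56 and 5.40 CPM in EGFP-positive cDC1, and 82.9 and 7.08 CPM in EGFP-negative cDC1. Mgl2 had 27.8 and 101 CPM in EGFP-positive cDC2, 67.3 and 149 CPM in EGFP-negative cDC2, 0.0875 and 28.9 CPM in EGFP-positive cDC1, and 43.8 and 220 CPM in EGFP-negative cDC1. The highest Mgl2 level of the 8 libraries was in a cDC1 library, and the second highest Clec10a level was too, in the other replicate of the same group. The replicate of EGFP-negative cDC1 that was high in Clec10a was thus the lower one in Mgl2.

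In EGFP-positive cells Clec10a did not overlap between the subsets, with a log2 fold change of 3.68 ± 1.11 for cDC2 over cDC1 (edgeR adjusted p = 0.195), and 3.55 without EGFP-positive cDC1 replicate 2. In EGFP-negative cells it was -0.53 ± 1.001, a value of the other sign, 2.14, without EGFP-negative cDC1 replicate 1. The difference between these 2 differences was 4.21 ± 1.47 on the log2 scale (edgeR adjusted p = 0.428), and 1.54 without EGFP-negative cDC1 replicate 1. Mgl2 overlapped between the subsets in both fractions, with log2 fold changes of 2.15 ± 1.84 in EGFP-positive and -0.29 ± 1.76 in EGFP-negative cells, and the second of these became 1.31 without EGFP-negative cDC1 replicate 2. The first became 9.42 without EGFP-positive cDC1 replicate 2, a value fitted against a library with 2 counts, and passed. EGFP-positive cDC2 lay above EGFP-negative cDC2 in Clec10a without overlap (1.30 ± 1.01, edgeR adjusted p = 1), and it is the only one of the 9 tested members of which this was so. EGFP-positive cDC1 lay below EGFP-negative cDC1 in Clec10a and in Mgl2 without overlap, with log2 fold changes of -2.91 ± 1.07 and -3.19 ± 1.92 (edgeR adjusted p = 0.338 and 0.470). The Clec10a value rests on EGFP-negative cDC1 replicate 1, without which it was -0.24, and it was -2.77 without EGFP-positive cDC1 replicate 2. Without that last library the Mgl2 value, fitted against the same 2 counts, was -10.46 and passed.

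The Clec4a genes code for the dendritic cell immunoreceptors: Clec4a2 and Clec4a4 carry an inhibitory motif, and Clec4a1 lacks one. Clec4a1 had 114 and 95.1 CPM in EGFP-positive cDC2, 366 and 176 CPM in EGFP-negative cDC2, 0.131 and 83.0 CPM in EGFP-positive cDC1, and 20.5 and 9.69 CPM in EGFP-negative cDC1. Clec4a2 had 132 and 74.2 CPM in EGFP-positive cDC2, 130 and 129 CPM in EGFP-negative cDC2, 0.0438 and 36.6 CPM in EGFP-positive cDC1, and 0.327 and 6.01 CPM in EGFP-negative cDC1. Every cDC2 library lay above every cDC1 library in both genes, and the cDC1 library nearest to them was EGFP-positive replicate 2 in each case. Clec4a4, which shares a 163-base run with Clec4a2, had 1 and 0 counts in EGFP-positive cDC2, 17 and 6 counts in EGFP-negative cDC2 and 0 in all 4 cDC1 libraries. It was the 1 member that did not pass the low-count filter, and it was not tested.

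Over both EGFP fractions, the log2 fold change of cDC2 over cDC1 was 2.75 ± 1.54 for Clec4a1 and 3.91 ± 1.75 for Clec4a2 (edgeR adjusted p = 0.517 and 0.389), and without EGFP-positive cDC1 replicate 2 it was 5.46 and 6.58, neither of which passed. In EGFP-negative cells the values were 4.17 ± 1.98 and 5.35 ± 2.34 (edgeR adjusted p = 0.562 and 0.526). With both EGFP-positive cDC1 libraries left out of the fit, Clec4a1 kept that value, 4.17, with a smaller SE of 0.54, and passed the threshold. In EGFP-positive cells the log2 fold changes were 1.33 ± 1.77 and 2.49 ± 2.05, and without EGFP-positive cDC1 replicate 2 they were 9.57 and 11.02 and both passed, as fitted values against a library with 3 Clec4a1 counts and 1 Clec4a2 count. For EGFP-positive over EGFP-negative cDC1 the log2 fold changes were 1.46 ± 1.78 and 2.53 ± 2.07, and without EGFP-positive replicate 2 they were -6.78 and -5.99. Clec4a1 was lower without overlap in EGFP-positive cDC2 than in EGFP-negative cDC2 (-1.38 ± 1.77), while Clec4a2 overlapped (-0.33 ± 1.94).

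Clec12a codes for an inhibitory receptor that in mice binds uric acid crystals and dead cells. It was the most even of the members over the libraries, with 266 and 127 CPM in EGFP-positive cDC2, 265 and 268 CPM in EGFP-negative cDC2, 27.6 and 86.8 CPM in EGFP-positive cDC1, and 138 and 159 CPM in EGFP-negative cDC1. The subsets overlapped because EGFP-positive cDC2 replicate 2 lay below both EGFP-negative cDC1 libraries. Within each EGFP fraction they did not overlap, with log2 fold changes of 1.78 ± 0.59 in EGFP-positive and 0.84 ± 0.57 in EGFP-negative cells (edgeR adjusted p = 0.221 and 0.694). The first of these was 2.83 without EGFP-positive cDC1 replicate 2 and passed. Over both fractions the value was 1.31 ± 0.42, with an unadjusted p of 0.0120 and an edgeR adjusted p of 0.223, and without that library it was 1.56. EGFP-positive cDC1 lay below EGFP-negative cDC1 without overlap (-1.38 ± 0.58, edgeR adjusted p = 0.385), and without EGFP-positive cDC1 replicate 2 this value was -2.43 and passed.

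Clec4n and Clec7a code for dectin-2 and dectin-1, activating receptors for fungal mannans and beta-glucans. Dectin-2 signals through Fcer1g, and dectin-1 through a motif of its own that recruits Syk. Clec4n had 1071 and 619 CPM in EGFP-positive cDC2, 1251 and 1361 CPM in EGFP-negative cDC2, 0.394 and 806 CPM in EGFP-positive cDC1, and 58.7 and 186 CPM in EGFP-negative cDC1. Clec7a had 1004 and 622 CPM in EGFP-positive cDC2, 1017 and 1404 CPM in EGFP-negative cDC2, 18.9 and 959 CPM in EGFP-positive cDC1, and 135 and 724 CPM in EGFP-negative cDC1. In both genes 1 cDC1 library, EGFP-positive replicate 2, lay above the lowest cDC2 library, and for Clec7a EGFP-negative cDC1 replicate 2 did as well. The replicates of EGFP-positive cDC1 differed 2047-fold in Clec4n and 50.8-fold in Clec7a, against 1.73-fold and 1.61-fold in EGFP-positive cDC2.

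The log2 fold change of cDC2 over cDC1 in both fractions was 2.24 ± 1.61 for Clec4n and 1.11 ± 1.02 for Clec7a (edgeR adjusted p = 0.659 and 0.755), and without EGFP-positive cDC1 replicate 2 it was 4.95 and 2.701, neither of which passed. In EGFP-negative cells, where the subsets did not overlap in either gene, it was 3.42 ± 2.17 and 1.49 ± 1.45. With both EGFP-positive cDC1 libraries left out, the Clec4n value of 3.42 had an SE of 0.59 and passed. In EGFP-positive cells the values were 1.07 ± 1.996 and 0.73 ± 1.43. Without EGFP-positive cDC1 replicate 2 they were 11.04 and 5.43 and passed, and without replicate 1 of that group the Clec7a value was -0.24. Both genes lay lower without overlap in EGFP-positive cDC2 than in EGFP-negative cDC2, by small amounts against the spread (-0.63 ± 1.98 and -0.57 ± 1.42). Between EGFP-positive and EGFP-negative cDC1 no direction held: the Clec4n value was 1.72 ± 2.03 with all libraries, -8.25 without EGFP-positive replicate 2 and 2.72 without EGFP-positive replicate 1. The Clec7a value was 0.19 ± 1.42 with all libraries and -4.50 without EGFP-positive replicate 2.

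**Figure D1:**
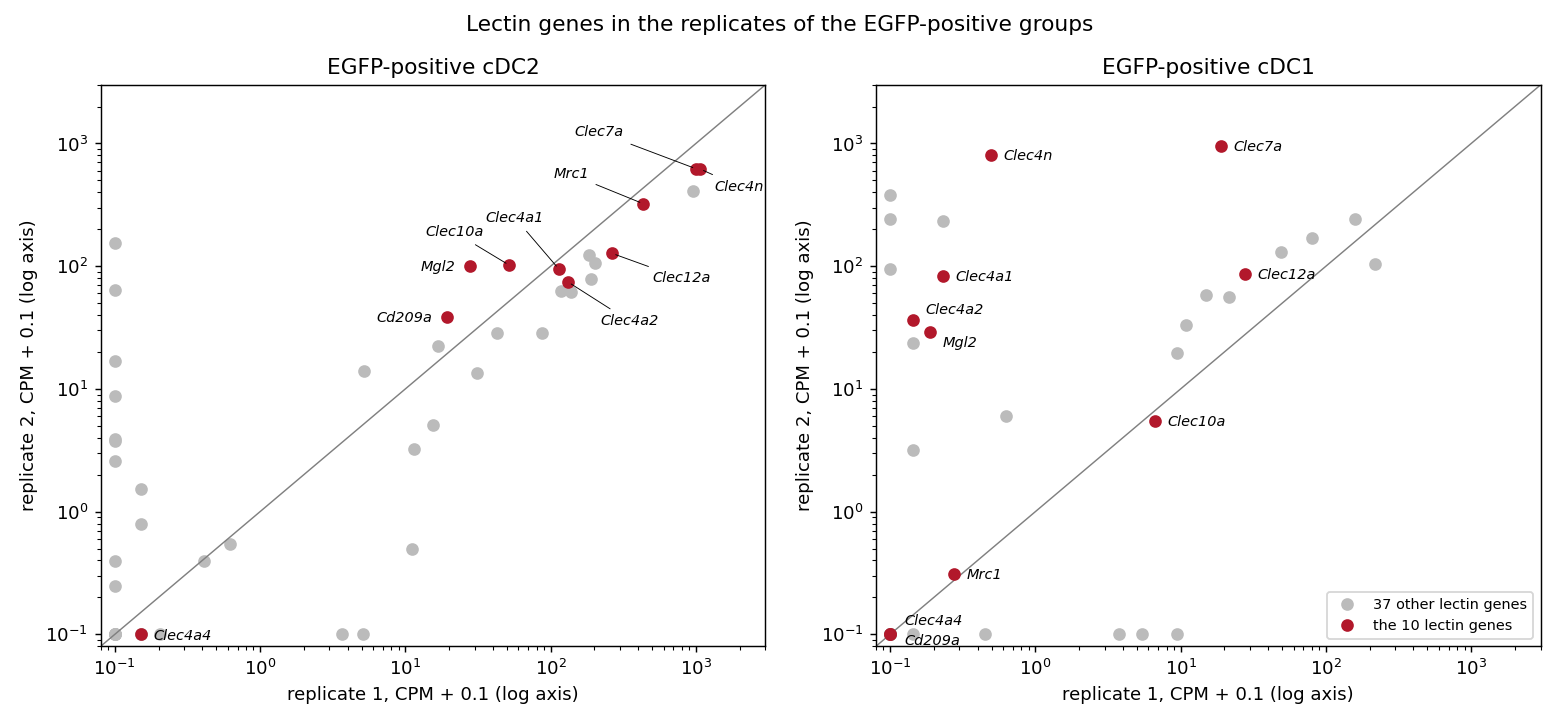
CPM plus 0.1 of the 10 lectin genes (red) and of 37 other lectin genes (grey) in replicate 2 against replicate 1 of EGFP-positive cDC2 (left) and EGFP-positive cDC1 (right), both axes logarithmic; the line marks equal levels. In EGFP-positive cDC2 the 9 tested members lie near the line, whereas in EGFP-positive cDC1 Clec4n, Clec7a, Clec4a1, Clec4a2 and Mgl2 lie more than 10-fold above it and Mrc1, Clec10a and Clec12a lie closer to it.

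Replicates more than 10-fold apart were counted with levels under 3 counts set to that floor. This gave 0 of the 9 tested members in EGFP-positive cDC2 and 0 in EGFP-negative cDC2, against 9.02% and 9.72% of all genes. In EGFP-positive cDC1 there were 5 (Mgl2, Clec4a1, Clec4a2, Clec7a and Clec4n), against 30.0% of all genes. In EGFP-negative cDC1 there were 4 (Cd209a, Clec10a, Clec4a2 and Mrc1), against 15.7% of all genes. Clec4a2 was in both sets. Mgl2, Clec4a1, Clec4a2, Clec7a and Clec4n were all high in the same EGFP-positive cDC1 library, while in EGFP-negative cDC1 replicate 1 was the higher one in Cd209a and Clec10a and replicate 2 in Clec4a2 and Mrc1. The cDC1 libraries thus did not share 1 order over the lectin genes.

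By the edgeR test with Benjamini-Hochberg adjustment over all 11394 genes, 0 of the 9 tested members passed an adjusted p of 0.05 in any of the 6 comparisons. Over both EGFP fractions, where 1.32% of all genes passed, Mrc1 and Clec12a had an unadjusted p under 0.05, against 13.5% of all genes, and the Wald test of DESeq2 called 3 members (Cd209a, Clec4a2 and Mrc1) and 10.2% of all genes. In EGFP-negative cells, where 0.360% of all genes passed, 1 member (Mrc1) had an unadjusted p under 0.05, against 9.58% of all genes, and DESeq2 called 2 (Clec4a2 and Mrc1) and 7.35% of all genes. In EGFP-positive cells, where 0.228% of all genes passed, 4 members had an unadjusted p under 0.05 (Cd209a, Clec10a, Clec12a and Mrc1), against 15.9% of all genes, and DESeq2 called 3 (Cd209a, Clec10a and Mrc1) and 13.9% of all genes. All of these members were higher in cDC2. Without EGFP-positive cDC1 replicate 2, 6 of the 10 members passed in EGFP-positive cells with edgeR (Mgl2, Clec4a1, Clec4a2, Clec7a, Clec12a and Clec4n), against 10.2% of all genes, in a test of a single EGFP-positive cDC1 library with the spread of the other groups.

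Between EGFP-positive and EGFP-negative cDC2, edgeR called 0% of all genes, 0 members had an unadjusted p under 0.05, against 2.63% of all genes, and DESeq2 called 0 members and 0.965% of all genes. Between EGFP-positive and EGFP-negative cDC1 edgeR called 0% of all genes, and 4 members had an unadjusted p under 0.05 (Cd209a, Clec10a, Clec12a and Mrc1, all lower in EGFP-positive cDC1), against 12.7% of all genes. DESeq2 called 2 of them there, Cd209a and Mrc1, and 11.6% of all genes. With EGFP-positive cDC1 replicate 1 as the only library of its group, edgeR called 4 members lower in EGFP-positive cDC1 (Mgl2, Clec4a1, Clec12a and Clec4n), against 8.41% of all genes in either direction. With replicate 2 as the only one it called 2 higher (Clec4a1 and Clec4n), against 6.15% of all genes in either direction. In both fits the spread came from the other groups. For the interaction, which tests whether the subset difference depends on EGFP, edgeR called 0% of all genes, 3 members had an unadjusted p under 0.05 (Clec10a, Cd209a and Mrc1), against 10.4% of all genes, and DESeq2 called Cd209a and 6.27% of all genes. The lowest edgeR adjusted p of the members in the interaction was 0.428, for Clec10a. Without EGFP-positive cDC1 replicate 2, Clec4a1 and Clec4n passed in the interaction, with values of 5.39 and 7.62 against -2.84 and -2.35 with all libraries and with 5.35% of all genes passing. Without replicate 1 Clec4a1 passed with the opposite sign, -3.85, and 4.15% of all genes did.

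Groups that did not overlap were common in libraries of this number. Over both EGFP fractions 3 members (Mrc1, Clec4a1 and Clec4a2) were higher in all 4 cDC2 libraries than in any cDC1 library, against 8.56% of all genes. In EGFP-negative cells 7 members were higher in cDC2 without overlap, all tested ones except Clec10a and Mgl2, against 26.5% of all genes. In EGFP-positive cells 6 were (Cd209a, Clec10a, Clec12a, Clec4a1, Clec4a2 and Mrc1), against 33.2% of all genes. No member was lower in cDC2 without overlap in any of these 3 comparisons. The share of all genes that were lower in this way was not counted, so that result has no background beside it. In cDC2, 1 member was higher in EGFP-positive libraries without overlap, against 22.6% of all genes, and 4 were lower (Cd209a, Clec4a1, Clec4n and Clec7a), against 19.2%. In cDC1, 0 members were higher in EGFP-positive libraries without overlap, against 11.5% of all genes, and 4 were lower (Cd209a, Clec10a, Clec12a and Mgl2), against 24.0%.

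The median log2 fold change of the 9 tested members for cDC2 over cDC1 was 2.24 over both fractions, where that of all genes was 0.28. It was 2.04 in EGFP-negative cells, against 0.04 for all genes, and 2.15 in EGFP-positive cells, against 0.30 for all genes. For EGFP-positive over EGFP-negative the members' median was -0.57 in cDC2 and -1.38 in cDC1, against 0.08 and -0.04 for all genes. Setting Cd209a to its bound leaves these medians where they are, since it lies on the same side of them. Without EGFP-positive cDC1 replicate 2 the members' median was 3.53 over both fractions, against 0.33 for all genes. In EGFP-positive cells it was then 9.57, or 9.42 with Cd209a at its bound, against 0.85 for all genes, and within cDC1 it was -5.99, against -0.38 for all genes. The medians in EGFP-positive cells and within cDC1 then rest on fitted values against a single library with 0 to 4 counts of 5 of the 9 members. Without EGFP-negative cDC1 replicate 2 the members' median within cDC1 was 0.43. The comparisons within cDC1 and within EGFP-positive cells share the EGFP-positive cDC1 libraries.

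**Figure D2:**
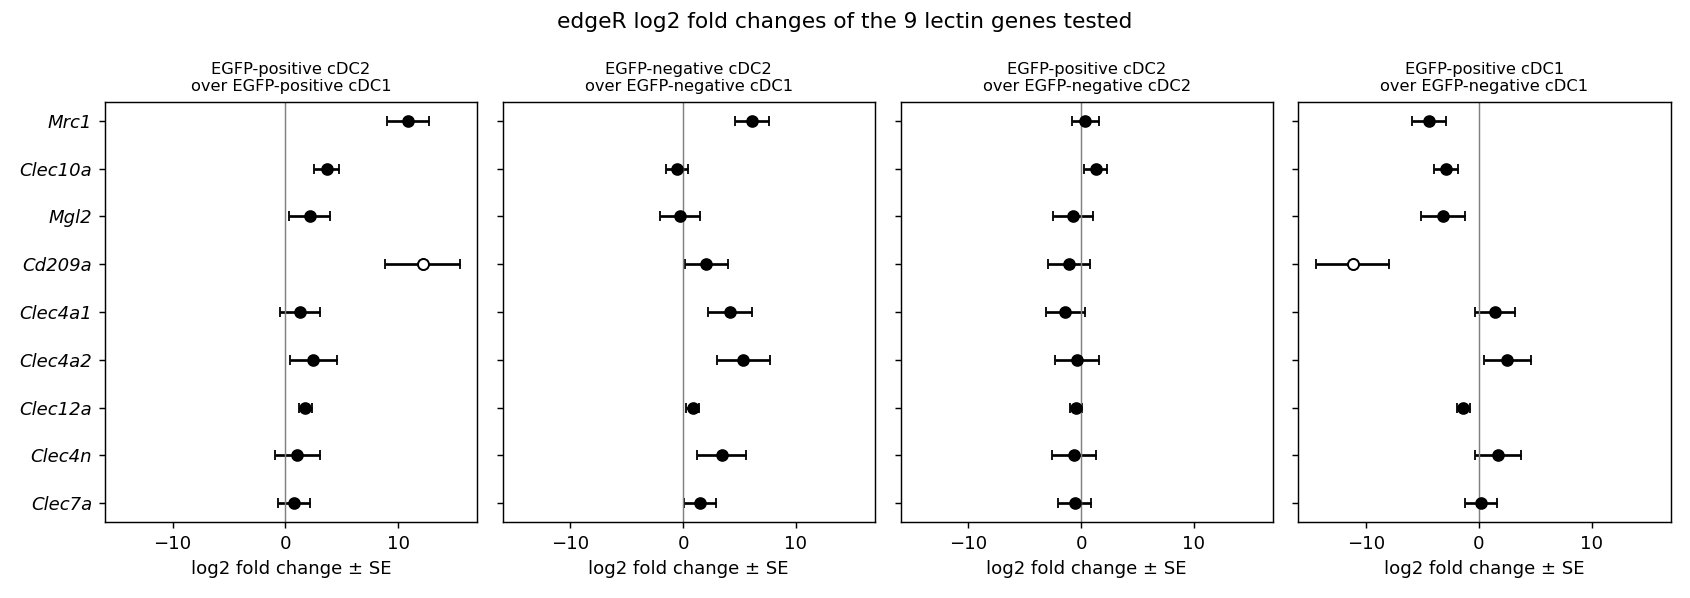
edgeR log2 fold changes with their standard errors for the 9 tested lectin genes in 4 comparisons of 2 libraries against 2; the open circles of Cd209a mark fitted values against a group with 0 counts, which are no bound. The Mrc1 value is 10.91 in EGFP-positive and 6.12 in EGFP-negative cells for cDC2 over cDC1, and the values for EGFP in cDC2 lie between -1.38 and 1.30.

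Levels of different genes can be compared only per length, and per kilobase of transcript the group means of the dectins ranked first and second in all 4 groups. Clec4n had 687 ± 260 CPM per kb in EGFP-positive cDC2 and 1063 ± 63.0 CPM per kb in EGFP-negative cDC2, and Clec7a had 358 ± 119 and 533 ± 120 CPM per kb in the same groups (SD, n = 2 each). The next level in EGFP-negative cDC2 was that of Clec4a1, 174 ± 86.3 CPM per kb, and those of Clec12a and Clec4a2 followed at 107 ± 0.819 and 103 ± 0.911 CPM per kb. In EGFP-positive cDC2 the members from the third to the sixth place, Clec4a2, Clec12a, Mrc1 and Clec4a1, lay between 81.7 and 66.9 CPM per kb and did not differ beyond their spread.

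In EGFP-positive cDC1 Clec4n had 328 ± 464 and Clec7a 215 ± 293 CPM per kb, SDs that exceed the means, and their order turned when the coding length was used instead (643 against 668 CPM per kb of coding sequence). In EGFP-negative cDC1 Clec7a was first with 189 ± 183 CPM per kb, followed by Clec4n with 99.6 ± 73.2, Mgl2 with 80.6 ± 76.2 and Clec12a with 59.4 ± 5.96 CPM per kb, neighbours that did not differ beyond their spread. Mrc1, which has the longest transcript of the 10 (5374 bases), was seventh in EGFP-negative cDC2 with 54.5 ± 8.40 CPM per kb and ninth in EGFP-negative cDC1 with 0.785 ± 1.07 CPM per kb.

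**Figure D3:**
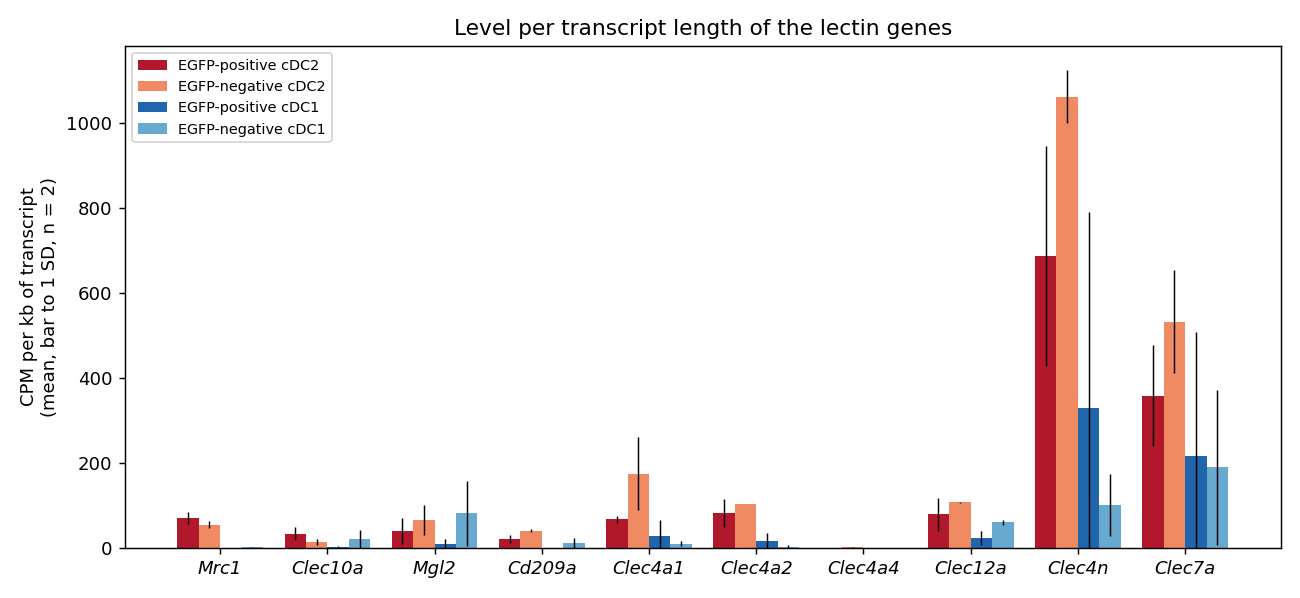
Mean CPM per kilobase of transcript of the 10 lectin genes in each group, with lines to 1 SD over the 2 libraries that end at 0 where the SD exceeds the mean. The means of Clec4n and Clec7a are the 2 highest in every group. In EGFP-positive cDC1 their lines are longer than the bars, and their means there rest on replicate 2.

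Other lectin genes gave a wider setting for the 10. Of 37 others, 22 were tested, and over both EGFP fractions, where 1.32% of all genes passed, Cd302 was higher and Klrk1 lower in cDC2. Cd302, a lectin-like gene of phagocytes, had 137 and 62.1 CPM in EGFP-positive cDC2, 140 and 97.5 CPM in EGFP-negative cDC2, 9.32 and 19.6 CPM in EGFP-positive cDC1 and 20.6 and 16.6 CPM in EGFP-negative cDC1, with a log2 fold change of 2.73 ± 0.41 (edgeR adjusted p = 0.0138). Klrk1, which codes for the activating receptor NKG2D, was lower in cDC2 by a log2 fold change of -3.73 ± 0.48 (edgeR adjusted p = 0.00725), with 4.95 to 34.1 CPM in the cDC2 libraries and 159 to 284 CPM in the cDC1 libraries. The cDC1 lectin gene Clec9a ran opposite to the members without passing, with 0.396 to 11.1 CPM in the cDC2 libraries and 49.1 to 217 CPM in the cDC1 libraries (-4.88 ± 0.98, edgeR adjusted p = 0.0557). In the other 5 comparisons 0 of the 22 passed.

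Clec4d and Clec4e, relatives of Clec4n that code for the receptors dectin-3 and Mincle, had the same high library as the dectins among cDC1. Clec4d had 957 and 412 CPM in EGFP-positive cDC2, 725 and 501 CPM in EGFP-negative cDC2, 0.131 and 233 CPM in EGFP-positive cDC1 and 23.2 and 49.2 CPM in EGFP-negative cDC1. Clec4e had 0 and 244 CPM in EGFP-positive cDC1, 8.65 and 22.3 CPM in EGFP-negative cDC1 and 123 to 202 CPM in the cDC2 libraries. Clec5a codes for a receptor that pairs with the adaptor Tyrobp. It had 0 and 380 CPM in EGFP-positive cDC1, 25.2 and 82.0 CPM in EGFP-negative cDC1 and 105 to 352 CPM in the cDC2 libraries. In both genes EGFP-positive cDC1 replicate 2 thus lay above every cDC2 library. Klrb1b, an inhibitory lectin-like receptor gene, was higher in every cDC1 library than in any cDC2 library (-1.98 ± 0.44 for cDC2 over cDC1, edgeR adjusted p = 0.0705).

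All 21 genes of the signalling list, which hold the kinases, adaptors and phosphatases that act below these receptors, were tested. Over both fractions 1 passed, against 1.32% of all genes. Syk had 64.8 and 65.5 CPM in EGFP-positive cDC2, 53.9 and 57.7 CPM in EGFP-negative cDC2, 12.9 and 19.1 CPM in EGFP-positive cDC1, and 14.3 and 13.1 CPM in EGFP-negative cDC1. It was higher in cDC2 over both fractions by a log2 fold change of 2.03 ± 0.37 (edgeR adjusted p = 0.0337), and its EGFP-positive cDC1 replicates differed far less than those of Clec4n and Clec7a. Fcer1g, the adaptor of dectin-2, had 2996 and 1459 CPM in EGFP-positive cDC2, 3115 and 2326 CPM in EGFP-negative cDC2, 140 and 1432 CPM in EGFP-positive cDC1, and 409 and 419 CPM in EGFP-negative cDC1. Its subset difference did not pass (2.11 ± 0.64, edgeR adjusted p = 0.196), and the same EGFP-positive cDC1 library was the high one. Tyrobp, Lyn and Prkcd overlapped between the subsets, with log2 fold changes of 1.02, 0.44 and 0.67. Ptpn6, the phosphatase of the inhibitory receptors, had 149 and 120 CPM in EGFP-positive cDC2, 419 and 329 CPM in EGFP-negative cDC2, 303 and 396 CPM in EGFP-positive cDC1, and 245 and 183 CPM in EGFP-negative cDC1. It thus lay lowest in EGFP-positive cDC2. Its log2 fold change of cDC2 over cDC1 was -0.29 ± 0.46 over both fractions, from -1.38 ± 0.33 in EGFP-positive and 0.80 ± 0.32 in EGFP-negative cells, and the difference between these had an unadjusted p of 0.00173 and an edgeR adjusted p of 0.298. Between EGFP-positive and EGFP-negative cDC2 it was -1.47 ± 0.33 (edgeR adjusted p = 1). In the other 5 comparisons 0 of the 21 passed.

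For each member with a mean of at least 10 CPM, the genes of most similar pattern were found by the smallest Euclidean distance of gene-centred log2(CPM + 1) over the 8 libraries, among 10729 genes. The nearest to Mrc1 was the collagenase gene Mmp13 (distance 3.02), followed by Cd93. The nearest to Clec4n was Ms4a6d (1.39), followed by the chemokine receptor gene Ccr1 and the pattern receptor gene Tlr2. The nearest to Clec4a1 were the complement gene Cfb (1.56) and the lysozyme gene Lyz2 (1.85), and the nearest to Clec4a2 were Lair1 (1.30), an inhibitory collagen receptor gene, and Sirpa (1.63). Mgl2 was nearest to Tacc3, Cdk1 and Incenp, genes of cell division (2.13, 2.17 and 2.33). Clec12a was nearest to Evl, Sdccag3 and Rassf1 (0.770, 0.813 and 0.902), the smallest distances of any member. Clec10a was nearest to Kdsr, Wdr81 and Ikzf5 (1.08, 1.10 and 1.15). For Clec7a the nearest were Mtmr6, Milr1 and Fam111a (1.08, 1.19 and 1.35), and for Cd209a Hacd3, Mxi1 and Vwa9 (1.69, 2.40 and 2.50). Of the 3 nearest genes of each member, 0 were among the other members.

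The RefSeq promoter table for GRCm38.p6 held 7 of the 10 genes (Cd209a, Clec12a, Clec4a1, Clec4a2, Clec7a, Mgl2 and Mrc1), and the 250 bases before each start were searched on both strands for short motifs of myeloid transcription factors. The PU.1 core GAGGAA was found in 5 of the 7 (Mrc1, Clec4a1, Clec12a, Clec7a and Mgl2), and in 23.3% of 32851 promoters of the same length. The ETS-IRF motif GGAANNGAA was found in 3 (Clec4a1, Clec7a and Cd209a), and in 6.99% of all promoters. The C/EBP motif TTGCNNAA and the AP-1 motif TGANTCA were found in Clec12a, and in 9.56% and 6.75% of all promoters. The E box CACGTG, held by 6.02% of all promoters, matched 0 of the 7. GAGGAA and GGAANNGAA can overlap by the letters GGAA, and a match describes the letters in this window only. The promoters of Mrc1, Clec12a and Clec7a are printed as those of the member with the widest subset gap, of the most even one and of one of the 2 highest per length: 180 bases up to the base before the start, in the direction of the gene, with matches of GAGGAA and GGAANNGAA on either strand in capitals.
Mrc1, chr2:14229234-14229413, plus strand: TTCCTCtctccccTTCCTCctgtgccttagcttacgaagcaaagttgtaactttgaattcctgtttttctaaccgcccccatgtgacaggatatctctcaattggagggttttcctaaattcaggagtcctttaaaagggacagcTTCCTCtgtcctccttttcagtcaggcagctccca
Clec12a, chr6:129350064-129350243, plus strand: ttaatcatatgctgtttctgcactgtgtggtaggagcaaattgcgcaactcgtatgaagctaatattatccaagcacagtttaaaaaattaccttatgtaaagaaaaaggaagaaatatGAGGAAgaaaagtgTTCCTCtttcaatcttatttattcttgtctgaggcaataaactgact
Clec7a, chr6:129472786-129472965, minus strand: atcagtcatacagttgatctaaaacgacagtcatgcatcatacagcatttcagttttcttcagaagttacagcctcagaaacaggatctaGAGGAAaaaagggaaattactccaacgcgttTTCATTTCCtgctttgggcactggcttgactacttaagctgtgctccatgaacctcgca
Mrc1 held 3 matches of the PU.1 core, all on the opposite strand, Clec12a held 2, 1 on each strand, and Clec7a held 1 together with an ETS-IRF match nearer to the start.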

How the data were processed

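RNA was measured in 8 libraries of sorted tumour dendritic cells, 2 in each of 4 groups taken from the sample titles. Per the labels' protocols, cDNA followed a published low-input protocol and a KAPA kit was used for the libraries. The submitters' processing notes name Trimmomatic 0.39, STAR 2.7.5c, Cufflinks 2.2.1 and mm10. How reads were assigned to genes, with which annotation and strand setting, is not given in the sources used here. Raw read counts per gene symbol were deposited by the authors, and every column was matched to a sample. Reads were not tied to single molecules, so floors cover counting error only.

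The edgeR 4.0.16 quasi-likelihood test (R 4.3.3) was run on the deposited counts. filterByExpr by group kept 11394 of 24369 genes, TMM scaled the libraries, glmQLFit was robust, glmQLFTest was two-sided, and p-values were adjusted by Benjamini-Hochberg over the whole table, with 0.05 as the threshold. One model had 1 mean per group, and another had subset and EGFP as additive terms. DESeq2 1.42.0 and the other alternatives in the closing section were each run in place of the main fit. DESeq2 differs from it in scaling, spread estimate and test, and fits with fewer libraries were also filtered and scaled anew. Leaving out both EGFP-positive cDC1 libraries was added after their levels were seen. A fold against a group at 0 used a floor of 3 counts over the group. The steps were tested on simulated data.

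The members and lists were chosen with earlier results of these data known. All 10 members are described. Of the other lectin and signalling genes, those past the threshold in any comparison and the 6 of highest mean CPM in each list are named, except 1 that is not reported here. The 3 genes of most similar pattern were found for each member with a mean of at least 10 CPM. Transcript lengths are those of the GENCODE M21 transcript with the longest coding sequence.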

Additional observations from a re-analysis of the deposited data

Results flagged for a closer look

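In the 4 libraries of a subset, a sample was marked when its gap to the nearest other library, divided by the whole range, passed Dixon's 95% critical value. Chance alone passes it in about 1 of 20 sets of 4 normally distributed values. That rate need not hold here, because CPM were not transformed and the 4 libraries come from both EGFP fractions. Among the cDC2 libraries, EGFP-positive replicate 2 was far below the others in Clec4a2, at 74.2 CPM, and in Clec12a, at 127 CPM. Among the cDC1 libraries, EGFP-positive replicate 2 was far above the others in Clec4a2, at 36.6 CPM. EGFP-negative cDC1 replicate 1 was far above the other cDC1 libraries in Cd209a, at 29.1 CPM, and in Clec10a, at 82.9 CPM. EGFP-negative cDC1 replicate 2 was far above them in Mrc1, at 8.30 CPM.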

How the results depend on the processing

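The count of members past the threshold was 0 in all 6 comparisons with edgeR. DESeq2 gave 3 over both EGFP fractions (10.2% of all genes), 2 in EGFP-negative cells (7.35%), 3 in EGFP-positive cells (13.9%), 0 for EGFP in cDC2 (0.965%), 2 for EGFP in cDC1 (11.6%) and 1 for the interaction (6.27%). The 4-group model gave 1 over both fractions (Mrc1), against 2.41% of all genes, and the fit of the compared libraries alone gave 1 in EGFP-negative cells (Clec4a1), against 2.89% of all genes. With both EGFP-positive cDC1 libraries left out, 2 passed in EGFP-negative cells (Clec4a1 and Clec4n), against 3.55% of all genes, and 0 for EGFP in cDC2. RLE scaling, no low-count filter and removal of Rn45s left every count at 0, against at most 1.39%, 1.70% and 1.31% of all genes. The causes were not tested.

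Leaving out 1 library could change the count of members past the threshold in every comparison except EGFP in cDC2. The spread of a group left with 1 library was taken from the others, so these counts are not compared here. Of the log2 fold changes, those of Clec10a and Mgl2 in EGFP-negative cells then ranged from -1.41 to 2.14 and from -1.02 to 1.31, that of Clec7a in EGFP-positive cells from -0.24 to 5.43, and that of Clec4a2 for EGFP in cDC2 from -0.91 to 0.025. For EGFP in cDC1 the ranges were -6.78 to 2.47 for Clec4a1, -5.99 to 5.78 for Clec4a2, -4.50 to 1.86 for Clec7a, -5.39 to 0.43 for Mrc1 and -8.25 to 2.78 for Clec4n. For the interaction they were -3.85 to 5.39 for Clec4a1, -6.12 to 5.66 for Clec4a2, -2.44 to 3.93 for Clec7a, -0.068 to 5.76 for Mrc1 and -3.41 to 7.62 for Clec4n. No other member's value turned round when 1 library was left out.

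Libraries with the same replicate number share a code in their titles whose meaning is not given. They did not deviate together (correlations of -0.224 to 0.0408 over the 6 pairs of groups) and were not paired. With the replicate number as a block, 0 members passed in each of the 6 comparisons, against at most 0.720% of all genes. The block turned 2 values near 0 round, to 0.22 for Mgl2 in EGFP-negative cells and to -0.20 for Clec7a for EGFP in cDC1. With 2 libraries a group and replicates of cDC1 this far apart, a gene that did not pass is not shown to be equal between the groups.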

Other observations

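Of the 6 relatives of Cd209a, 5 were counted mainly in EGFP-positive cDC2, 4 of them in a single library. Cd209f, Cd209g, Cd209b and Cd209e had 3139, 1292, 337 and 50 counts in EGFP-positive cDC2 replicate 2, and at most 2 counts of any of them were found in each of the other 7 libraries. The same library had 45.5 CPM of the summed fibroblast markers, against 0.208 to 1.11 CPM in the other cDC2 libraries. The highest fibroblast sum, 133 CPM, was in EGFP-positive cDC1 replicate 1, which had 1 count of Cd209b and 0 counts of Cd209e, Cd209f and Cd209g. The part of fibroblasts was not tested. Cd209d had 318 and 451 counts in EGFP-positive cDC2, 0 and 8 counts in EGFP-negative cDC2 and 0 in the 4 cDC1 libraries. Cd209c had 1 and 0 counts in EGFP-positive cDC2, 0 and 32 counts in EGFP-negative cDC2 and 0 in the cDC1 libraries. The hyaluronan receptor gene Lyve1, which marks a class of tissue macrophages and lymphatic vessels, had 63 and 785 counts in EGFP-positive cDC2 and 0 in the other 6 libraries, and the scavenger receptor gene Cd163 had 43 and 101 counts in EGFP-positive cDC2 and 0 in EGFP-negative cDC2, but also 60 counts in EGFP-negative cDC1 replicate 2. Of the other macrophage genes looked up with them, Siglec1 had 294 and 111 counts in EGFP-positive cDC2 and 91 and 254 in EGFP-negative cDC2. A cDC1 library held at most 1 Siglec1 count. Timd4 had 0 and 61 counts in EGFP-positive cDC2 and 0 and 157 in EGFP-negative cDC2. Its highest counts were in EGFP-negative cDC1, with 206 and 761, and EGFP-positive cDC1 had 2 and 124. Marco had 7 counts in EGFP-positive cDC2 replicate 2 and 0 elsewhere, and Vsig4 and Cd5l had 0 counts in all 8 libraries. Cd207, the langerin gene of Langerhans cells and some dendritic cells, ran the other way in cDC2, with 96 and 0 counts in EGFP-positive and 965 and 856 counts in EGFP-negative libraries. Between EGFP-positive and EGFP-negative cDC2, neither Cd209d nor Cd207 passed the edgeR test (adjusted p = 1 for both), and Cd209b, Cd209e, Cd209f and Cd209g did not pass the low-count filter. These genes were chosen after their values were seen.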
